A study of Arabidopsis thaliana with 18 samples.

Results

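The induction of bes1-1 cotyledons compares bes1-1 Arabidopsis thaliana after 72 h of VISUAL culture with the same genotype at 0 h. The 6 arrays of these groups, 3 per time, were taken from a series of 18, and same-numbered replicates were matched because the arrays of replicate 1 lie on a lower scale. The labelled tissue was checked by the mesophyll genes RCA, PRK and SBPASE, whose signals on the 0 h arrays were 10.11 to 12.55, against a mean lower quartile of 3.81. Such signals are those of green tissue, so this check cannot tell cotyledons from other green parts. The response is described over 16411 annotated genes, each represented by 1 of the 38408 probe sets of the array. bes1-1 carries a T-DNA insertion in BES1, and the other groups used for comparison are the wild type (WT) and a further insertion allele, bes1-3, at the same times. Seedlings of every group were grown for 6 days in liquid medium. Culture for the 72 h groups was in medium that held 10 µM bikinin, which blocks GSK3-like kinases, together with 1.25 mg/L of 2,4-D (a synthetic auxin) and 0.25 mg/L of kinetin (a cytokinin). The 0 h cotyledons were taken before culture, so culture, its time and its agents cannot be told apart in any difference between 72 h and 0 h. BES1 was not analysed here, since the platform's gene table names no probe set for it, and the genotype labels were not checked by its transcript. The labels do not say whether the replicates are separate plants or cultures. The p-values therefore reflect the spread among these arrays alone, and that spread may be technical.

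VISUAL is a culture method in which mesophyll cells of leaves or cotyledons leave their photosynthetic state, pass through a procambium-like stage and form xylem vessel elements or phloem sieve elements. Auxin and cytokinin start the process, and bikinin blocks the GSK3-like kinases that hold back vascular differentiation. These kinases phosphorylate and inactivate BES1, a transcription factor of brassinosteroid signalling that promotes xylem and phloem formation. Procambial cells are kept undifferentiated by the peptide TDIF, which is made in phloem and acts through a receptor that activates the same kinases. Xylem vessel elements deposit a secondary wall of cellulose, xylan and lignin and then die by self-digestion, whereas sieve elements stay alive and lose their nuclei.

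Values are log2 signals, so a difference of 1 is a 2-fold change. Each log2 change compares 3 arrays with 3 and stands with the standard error (SE) of a limma fit over all 18 arrays with the replicate number as a block, and p-values are adjusted over all probe sets by the Benjamini-Hochberg method. A gene is said to have risen or fallen only where the adjusted p was below 0.05 and the change was at least 2-fold, and such genes are called 2-fold higher or lower. Over all probe sets 4885 were 2-fold higher, which is 12.7%, and 3950 were 2-fold lower, which is 10.3%. At any size 10957 (28.5%) were called higher and 8415 (21.9%) lower, and the median change of all probe sets was 0.03. After each array was centred on its own median the split turned, with 6726 higher and 13587 lower at any size, and the median change of all probe sets became -0.24. The 2-fold calls turned as well, from 55.3% higher among them to 36.3% (3235 higher and 5685 lower) after centring and to 47.1% (3988 and 4475) after quantile normalization. The medians of the 6 arrays of replicate 1 over the whole series were 5.19 to 5.46, against 5.91 to 6.25 on the 12 arrays of replicates 2 and 3.

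Among the annotated genes of bes1-1, 1692 rose and 1579 fell over 72 h. Changes of at least 4-fold were reached by 705 of these genes in the upward direction and 498 in the downward direction, where 3.89% and 3.4% of all probe sets did so. Changes of at least 16-fold were reached by 91 genes upward and 30 downward, where 0.492% and 0.182% of all probe sets did so. Of the 3271 genes that rose or fell, 3255 moved the same way in all 3 replicate pairs, and for 2945 the 0 h and 72 h arrays did not overlap. The same arrays gave the calls, so this agreement is largely set by the choice of genes and is no separate evidence. Over all probe sets 32.6% had arrays that did not overlap. Each replicate pair on its own gave a similar spread. The 5th to 95th percentiles of the gene changes ran from -1.76 to 1.83 in pair 1, from -1.51 to 1.76 in pair 2 and from -1.64 to 1.96 in pair 3. Pearson's r between pairs was 0.857 to 0.870 across the genes, which are not independent replicates. When genes were ordered by their mean signal and cut into 4 equal bins, 1.02% of the dimmest bin rose and 1.80% fell. The next bins had 10.8% and 9.24%, 19.0% and 13.8%, and, for the brightest, 10.5% and 13.6%. Changes were thus called least often in the dimmest bin. For 480 of the genes that rose or fell, the lower group mean lay below the mean lower quartile of its arrays (3.81 at 0 h and 3.80 at 72 h). These genes are called dim below, and the sizes of their changes are uncertain.

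The largest rises started from low signals before culture. Rises and falls were ranked only among called genes whose 0 h and 72 h arrays did not overlap and whose pairs shared a sign. LCR25, which encodes a small cysteine-rich secreted peptide, stood at 2.64, 4.48 and 4.08 in replicates 1 to 3 at 0 h and at 10.80, 11.55 and 12.20 at 72 h, a rise of 7.78 ± 0.24 (adjusted p = 4.71e-10) from a dim level. The locus AT5G52390, for which the gene table gives no symbol or function, went from 3.16, 4.26 and 4.08 to 10.83, 11.32 and 11.98, a 187-fold rise. For both genes every 72 h array stood far above every 0 h array. GH3.1 encodes an enzyme that conjugates auxin to amino acids. Its signal was 4.38, 5.02 and 5.36 at 0 h and 11.53, 11.52 and 11.14 at 72 h, an 89.1-fold rise (6.48 ± 0.25, adjusted p = 1.35e-09). EXPB3 encodes a beta-expansin, a protein that loosens cell walls, and its arrays at 5.18, 6.04 and 5.66 moved to 11.42, 11.76 and 11.22, a 57.3-fold rise. The beta-glucosidase gene BGLU28 rose 58.1-fold, from 4.09, 4.3 and 5.10 to 9.78, 10.21 and 11.08. The plant defensin gene PDF2.1 rose by 6.37 from a dim level, with 72 h arrays at 9.84, 8.70 and 11.27 that differed more among themselves than those of GH3.1. AT3G60650 (133-fold), AT4G20320 (97.0-fold), AT1G47271 (79.6-fold), AT1G12890 (61.4-fold) and AT3G63050 (49.2-fold) completed the largest rises that started above the lower quartile, together with AT5G22930 at 5.41. No function is given for these loci in the table used.

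**Figure D1:**
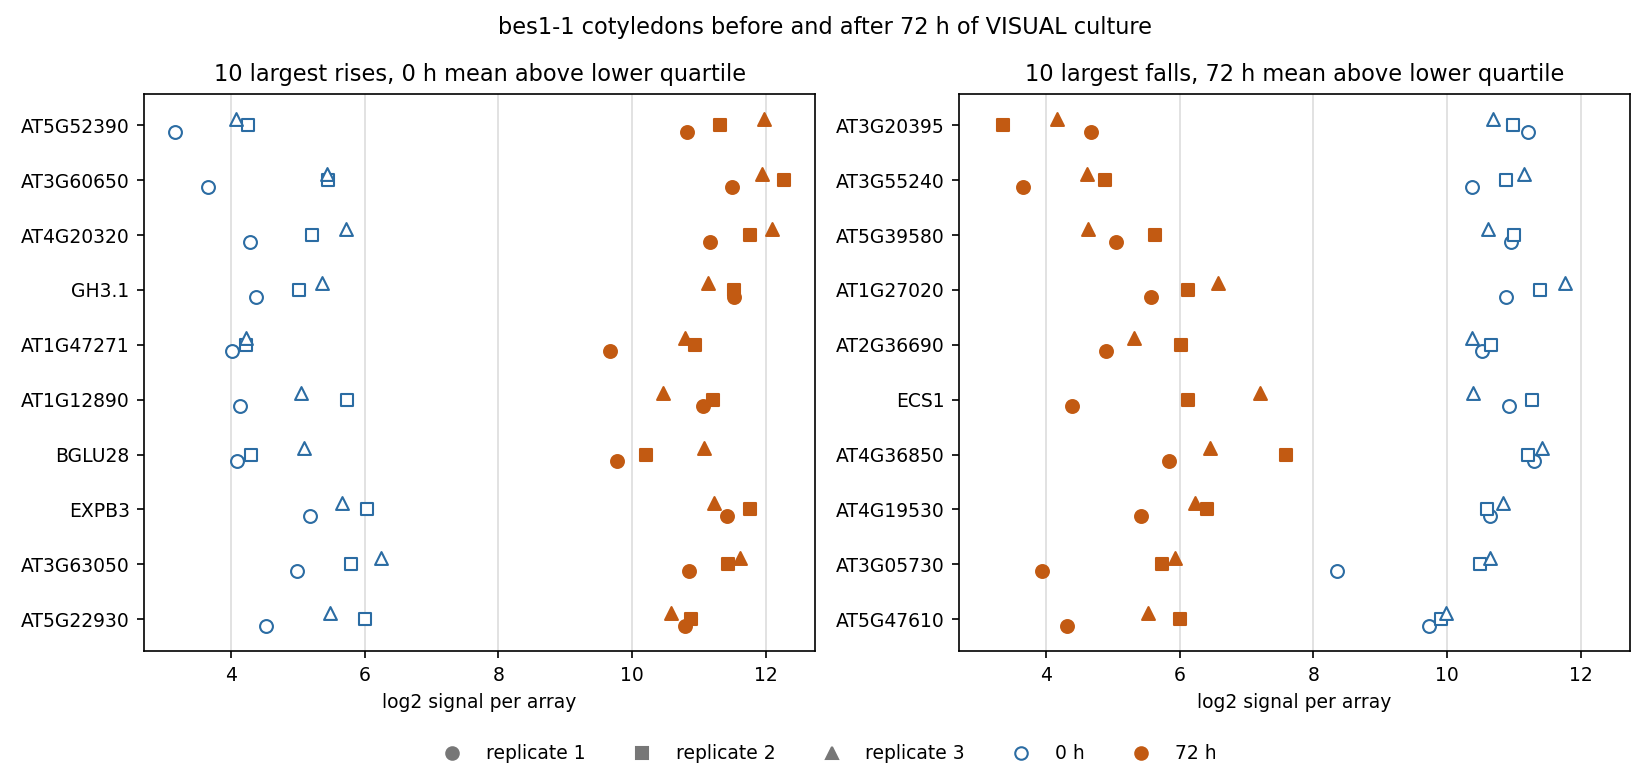
Log2 signal (x axis) of the 10 largest rises (left) and 10 largest falls (right) of bes1-1 whose lower group mean was above the lower quartile of its arrays. Open blue symbols are 0 h arrays and filled orange symbols 72 h arrays, and circles, squares and triangles mark replicates 1, 2 and 3. Only genes whose 0 h and 72 h arrays do not overlap were ranked, and replicate 1 is often the lowest of its group.

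The largest falls were of similar size. AT3G20395 had signals of 11.21, 10.99 and 10.69 at 0 h and of 4.68, 3.36 and 4.17 at 72 h, a 119-fold fall (-6.90 ± 0.39, adjusted p = 2.24e-08). AT3G55240 fell 85.6-fold, from 10.38, 10.88 and 11.16 to 3.66, 4.89 and 4.62. The class III peroxidase gene AT5G39580, a member of the family that oxidises wall phenolics with hydrogen peroxide, went from 10.96, 11.01 and 10.62 to 5.05, 5.63 and 4.63, a 54.1-fold fall. All 3 were high on every 0 h array and low on every 72 h array, where the ranking took only genes without overlap. ECS1, which encodes a cell wall protein, fell by 4.96 ± 0.45, from 10.93, 11.28 and 10.39 to 4.39, 6.13 and 7.21, and its 72 h arrays were spread over a wider range than its 0 h arrays. AT1G27020 fell 38.2-fold. AT2G36690, AT4G36850, AT4G19530, AT3G05730 and AT5G47610 had changes of -5.10 to -4.59. Other large falls ended in dim signals, among them AT1G62510 (-6.69), AT5G26280 (-5.93), AT5G26200 (-5.57) and AT4G21870 (-5.21).

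Most measured genes of the procambium and cambium list, which also holds genes of signals to these tissues, rose in bes1-1. Of 42 listed symbols, some of them synonyms, 7 genes were measured. Of these 5 were 2-fold higher and 0 lower, where 12.7% and 10.3% of all probe sets were. Their median change was 1.53 against -0.09 over all annotated genes. CLE44 encodes TDIF. Its signal was 5.47, 7.06 and 6.86 at 0 h and 10.39, 11.63 and 11.18 at 72 h, a rise of 4.60 ± 0.24 (adjusted p = 1.19e-08). CLE41, which encodes the same peptide, was at 7.85, 8.83 and 8.46 before and at 9.34, 10.27 and 10.14 after culture, a rise of 1.54 ± 0.13. Neither gene had overlapping arrays. BRL1, a brassinosteroid receptor of vascular cells, rose by 2.09 ± 0.26, from 4.99, 6.05 and 5.63 to 7.69, 7.55 and 7.72. MOL1, a receptor-like kinase that limits cambium activity, rose by 1.53 ± 0.15, with arrays at 4.24, 5.16 and 5.34 before and at 6.17, 6.64 and 6.51 after culture. No measured member of this list had a call for a difference in induction from WT.

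The sieve element list of the phloem held 26 symbols. All 4 measured genes were called higher in bes1-1 and 3 of them were 2-fold higher. At any size 28.5% of all probe sets were called higher, and 12.7% were 2-fold higher. OPS, a membrane protein that promotes protophloem differentiation, stood at 3.23, 5.42 and 4.56 at 0 h and at 8.06, 8.36 and 8.64 at 72 h, a rise of 3.95 ± 0.35 (adjusted p = 1.14e-06). CLE25, a peptide gene of phloem, went from 4.55, 6.22 and 5.76 to 8.42, 9.33 and 9.11, a rise of 3.44 ± 0.19. CLE45, whose peptide restrains protophloem formation, rose by 2.22 ± 0.23 from dim signals of 2.71, 3.21 and 3.2 to 4.33, 5.58 and 5.87. For these 3 genes no 0 h array reached the lowest 72 h array. CLE26, a further phloem peptide, was called higher at 0.96. The companion cell and phloem parenchyma list had only 2 measured members. SWEET11, a sucrose exporter of phloem parenchyma, fell by 3.47 ± 0.29, from 11.28, 12.10 and 12.25 to 6.81, 9.12 and 9.29, and SWEET13 at 0.40 was not called. In such bulk samples fewer cells of a type and less RNA per cell cannot be told apart.

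Xylem was represented by genes of the secondary wall, of lignin and of cell death, since the platform table named none of 30 listed xylem transcription factors. The list of secondary wall polysaccharides held 45 symbols, some of them synonyms. Of its 8 measured genes 6 were 2-fold higher and 0 lower, where 12.7% and 10.3% of all probe sets were. Their median was 1.95. TBL33, a xylan acetyltransferase gene, had signals of 4.88, 5.50 and 5.52 at 0 h and of 7.65, 8.60 and 9.75 at 72 h, a rise of 3.36 ± 0.29 (adjusted p = 8.6e-07). IRX15-L, needed for normal xylan in secondary walls, rose by 2.71 ± 0.30, from 5.82, 6.40 and 6.06 to 7.86, 8.83 and 9.72. GUT2, also known as IRX10, encodes an enzyme that extends the xylan backbone, and it rose by 2.33 ± 0.18 from 7.40, 8.17 and 8.03 to 9.33, 10.24 and 11.03. In all 3 genes replicate 3 was the highest and replicate 1 the lowest of the 72 h arrays, and no 72 h array reached down to the 0 h arrays. IRX15, the close homologue of IRX15-L, stood at 1.86, 3.25 and 3.53 before and at 4.16, 5.41 and 5.79 after culture, a rise of 2.24 ± 0.33 from a dim level. The list's median change was 1.39, 1.84 and 2.4 in pairs 1, 2 and 3.

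Genes of lignin and monolignol metabolism did not share a direction. Of 10 measured members, from 43 listed symbols, 4 were 2-fold higher and 2 were 2-fold lower. Over all probe sets the shares were 12.7% and 10.3%. With each array centred the list's counts were 2 and 2. The peroxidase gene AT5G66390 (PRX72 in the gene table's synonyms) acts in lignin polymerisation, and it rose by 3.45 ± 0.27, from 3.45, 4.66 and 4.88 to 6.54, 8.06 and 8.73. BGLU45, which releases monolignols from their glucosides, rose by 2.24 ± 0.35 from dim signals of 2.90, 2.97 and 3.37 to 4.71, 5.32 and 5.92. Falls were measured for another peroxidase and for a glucosyltransferase. AT5G64120 (PRX71) fell by 2.43 ± 0.24, from 9.77, 10.49 and 9.91 to 6.75, 7.89 and 8.24, and UGT72E1, which glucosylates monolignol aldehydes, fell by 1.74 ± 0.29.

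Of 6 measured genes of xylem cell death and vacuolar hydrolysis, from 21 listed symbols, 5 rose, with a list median of 1.45. With each array centred 3 were 2-fold higher. scpl48, a serine carboxypeptidase-like gene, had the largest rise of the list at 3.09 ± 0.13 (adjusted p = 2.55e-09), from 8.24, 8.86 and 8.70 to 11.48, 11.58 and 12.01. In a separate list of 32 serine carboxypeptidase genes 4 rose and 5 fell, with a median of 0.07, where 12.7% and 10.3% of all probe sets did so. The vacuolar processing enzymes are cysteine proteases of the vacuole, and all 3 measured genes rose. BETA-VPE went from 7.28, 7.42 and 7.37 to 9.02, 10.02 and 9.41, a rise of 2.13 ± 0.27. GAMMA-VPE went from 9.03, 9.45 and 9.51 to 10.97, 10.96 and 10.93, a rise of 1.62 ± 0.14. ALPHA-VPE rose by 1.27 ± 0.25, from 3.38, 4.43 and 4.26 to 4.44, 5.52 and 5.91, where the lowest 72 h array lay just above the highest 0 h array.

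**Figure D2:**
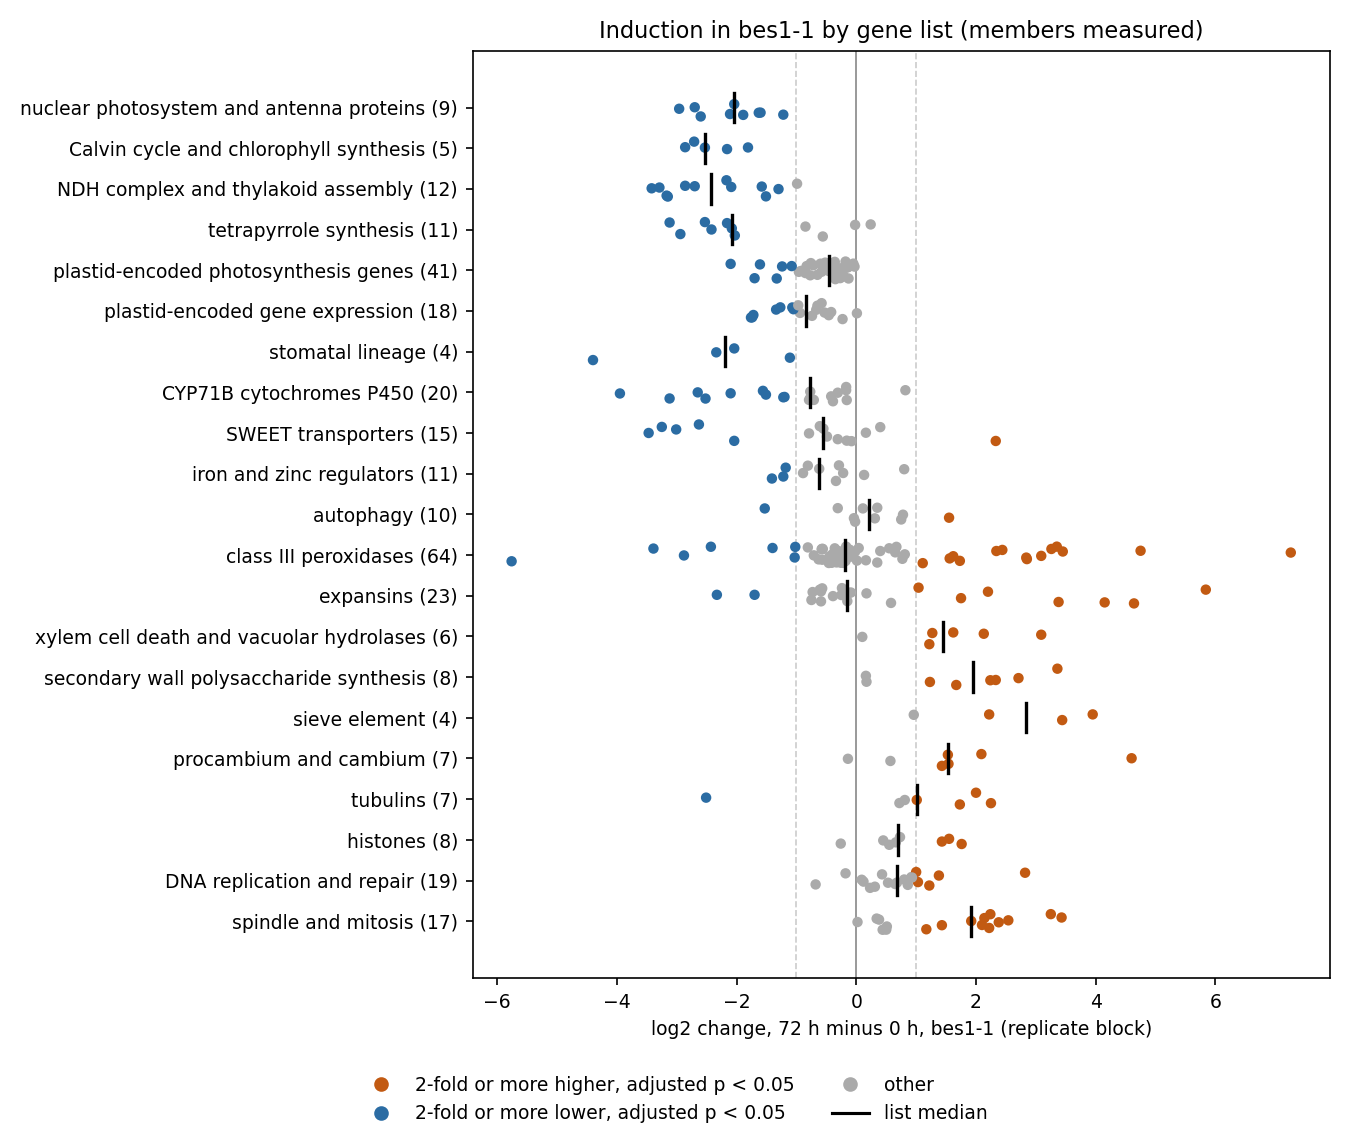
Log2 change from 0 h to 72 h in bes1-1 (x axis) of the measured members of 21 gene lists (y axis), 1 dot per gene. Coloured dots are genes 2-fold higher or lower at an adjusted p below 0.05, grey dots are the others, and bars mark list medians. The procambium, sieve element, secondary wall and mitosis lists lie to the right of 0, and the nuclear photosynthesis and stomatal lists lie to the left.

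Most genes of the spindle and mitosis rose, and fewer of the other genes of cell division did. Of 17 measured genes of that list 16 were called higher, 11 were 2-fold higher and 0 were lower, with a median of 1.92. At any size 28.5% of all probe sets were called higher and 21.9% lower. At 2-fold these shares were 12.7% and 10.3%. AUR2 and AUR1 encode Aurora kinases, which control chromosome segregation and the plane of division. AUR2 rose by 3.43 ± 0.15 (adjusted p = 2.98e-09), from 5.58, 6.35 and 6.31 to 9.29, 9.72 and 9.52, and AUR1 by 2.54 ± 0.15, from 7.89, 8.32 and 8.44 to 10.65, 10.79 and 10.82. BUBR1, a spindle checkpoint gene, rose by 3.25 ± 0.15 from 5.59, 7.22 and 7.21 to 9.34, 10.08 and 10.36. KINESIN-12B, a motor of the phragmoplast, rose by 2.38 ± 0.13. In each of these genes the arrays of the groups were separated by more than 1 log2 unit. DNA replication and repair genes changed less. Of 19 such genes 14 were called higher and 1 lower, 5 were 2-fold higher, and their median was 0.68, with 2 of them 2-fold higher when each array was centred. TOPII, a DNA topoisomerase gene, rose by 2.82 ± 0.12, from 6.62, 7.41 and 7.38 to 9.63, 10.01 and 10.23. The checkpoint gene RAD9 rose by 1.38, the helicase gene FANCM by 1.22 and the DNA polymerase subunit gene POLD3 by 1.03. Among 8 histone genes 3 rose, namely HIS1-3 by 1.76 from a dim level, HTB2 by 1.55 and HTR12, the histone of centromeres, by 1.43. Of 7 tubulin genes 4 rose and 1 fell, and with each array centred 3 rose and 1 fell. TUB7 rose by 2.25 ± 0.12, TUB1 by 2.00 and TUBG1, the gamma-tubulin that starts microtubules, by 1.73, while TUB5 fell by 2.51 ± 0.34.

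Families that remodel the growing wall held large rises in some members. Over all probe sets 12.7% were 2-fold higher and 10.3% 2-fold lower, and the falls in these families were near or under that share. The lowest members were at -2.33 among expansins, -1.96 among trichome birefringence-like proteins, -1.12 among endoglucanases and -1.10 among xyloglucan endotransglucosylases. Of 23 expansin genes 7 rose and 2 fell, with a median of -0.15, and centring gave 6 and 4. Besides EXPB3, EXPA4 rose by 4.64 ± 0.23 from 5.18, 6.54 and 6.29 to 10.32, 10.72 and 10.88, EXPA15 by 4.15 ± 0.21 and EXPA8 by 3.38 ± 0.39. The family's median lay close to that of all annotated genes, and these members lay far above it. Family 9 endoglucanases cut cellulose and related glucans. Of 19 genes 6 rose and 1 fell. GH9C2 rose by 4.40 ± 0.20, from 8.27, 9.19 and 9.32 to 13.27, 13.45 and 13.25, and GH9B8, GH9B6 and GH9B13 rose by 3.94, 3.93 and 3.81. Xyloglucan endotransglucosylases, which rejoin xyloglucan chains, had 3 of 10 genes higher and 1 lower, with XTH19 at 2.78 and XTH20 at 3.78 from a dim level. Trichome birefringence-like proteins, a family that acetylates wall polymers, had 7 of 23 genes higher and 2 lower, against 4 and 3 with each array centred. TBL39 rose by 4.62 ± 0.22 and TBL36 by 4.04 ± 0.39, and neither had overlapping arrays.

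Hormone response genes held both large rises and uncalled members. Over all probe sets 12.7% were 2-fold higher and 10.3% 2-fold lower. Of 23 genes of auxin synthesis and response 9 rose and 1 fell, and the list's median of 0.16 became -0.12 with each array centred. The largest rises after GH3.1 were those of Aux/IAA repressor genes. IAA30 was at 1.59, 2.05 and 2.11 at 0 h and at 6.78, 6.90 and 6.92 at 72 h, a rise of 4.95 ± 0.35 from a dim level. IAA29 rose by 4.49 ± 0.49, from 3.59, 6.13 and 4.64 to 9.25, 9.21 and 9.37, and IAA20 by 3.95 ± 0.23 from a dim level. The 72 h arrays of these repressors lay closer together than the 0 h arrays of IAA29. Of 3 cytokinin genes in the signalling and turnover list 2 rose. ARR15, a response regulator that dampens cytokinin signalling, rose by 2.4 ± 0.36 (adjusted p = 0.000133), from 2.68, 5.05 and 4.37 to 5.96, 6.14 and 7.19, and RR22 rose by 1.33 from a dim level. Among 8 genes tied to brassinosteroids 2 rose, the receptor gene BRL1 and the expansin gene EXPA8, and BRH1, a RING finger gene that brassinosteroid represses, fell by 1.56 ± 0.20. Of 4 measured genes on the jasmonate list JRG21, a dioxygenase gene, rose by 2.06 from a dim level, and 2 fell. The falls were those of ECS1, the cell wall protein gene named above, and of FAMT, which ended dim.

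Nuclear genes of photosynthesis fell in bes1-1. All 5 measured genes of the Calvin cycle and chlorophyll synthesis were 2-fold lower, with a median of -2.53. Over all probe sets 10.3% were 2-fold lower. PRK, the kinase that makes the acceptor of carbon dioxide, fell by 2.86 ± 0.32, from 10.11, 11.11 and 11 to 6.22, 9.18 and 8.24. RCA, the activase of Rubisco, fell by 1.81 ± 0.19, from 12.22, 12.55 and 12.49 to 9.78, 11.32 and 10.72, and SBPASE, a further Calvin cycle enzyme, by 2.71 ± 0.20. In PRK and RCA replicate 1 had the lowest 72 h signal and replicate 2 the highest, and neither group overlapped the other. Of 12 genes of the NDH complex and thylakoid assembly 11 were 2-fold lower, with a median of -2.44. NdhL, a subunit of the complex that carries cyclic electron flow, fell by 3.42 ± 0.45 (adjusted p = 4.31e-05), from 11.40, 11.80 and 11.88 to 6.33, 9.69 and 8.79, and PAM68, an assembly factor of photosystem II, fell by 3.29 ± 0.20. The 72 h arrays of NdhL spanned more than 3 log2 units and still lay below every 0 h array. All 9 nuclear photosystem and antenna genes fell, with a median of -2.04. The antenna gene LHCB4.2 went from 10.36, 10.42 and 10.63 to 6.30, 8.94 and 7.31, a change of -2.96 ± 0.39. PSB27 of photosystem II fell by 2.70 and PSAN of photosystem I by 2.60. The medians of this list were -2.52, -1.22 and -2.17 in pairs 1, 2 and 3, so pair 2 had the smallest fall. Of 11 tetrapyrrole synthesis genes 7 fell. HEME1 and HEME2, which encode uroporphyrinogen decarboxylases, fell by 3.12 ± 0.16 and 2.94 ± 0.16, and the chlorophyll gene CHLM by 2.53 ± 0.16.

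Plastid-encoded genes had smaller median changes than the nuclear lists, a difference that was not tested. Their signals were high, with list means of 12.88 to 13.26 for photosynthesis and 12.6 to 12.96 for gene expression on the 0 h arrays, where no signal on any array was above 14.19. What part this level had in the size of their changes was not tested. Of 41 plastid photosynthesis genes 33 were called lower, 6 were 2-fold lower and 0 were higher, with a median of -0.45. At any size 21.9% of all probe sets were called lower, and 10.3% were 2-fold lower. The photosystem II gene psbM fell by 2.1 ± 0.20, from 10.91, 11.82 and 11.97 to 8.30, 10.32 and 9.77, and ndhF of the NDH complex fell by 1.70 ± 0.15. Of 18 plastid genes of transcription and translation 17 were called lower and 7 were 2-fold lower, with a median of -0.84. The ribosomal protein gene rpl33 fell by 1.76 ± 0.09, from 11.92, 12.20 and 12.11 to 10.17, 10.41 and 10.38, and rpoB, an RNA polymerase subunit gene, by 1.34. The replicates of rpl33 lay closer together than those of psbM. With each array centred 12 of the photosynthesis genes and 10 of the gene expression genes were 2-fold lower.

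Genes of the stomatal lineage list fell. The list held 23 symbols. All 4 measured members were 2-fold lower, where 10.3% of all probe sets were, with a list median of -2.19. These members include STOMAGEN, a gene of mesophyll and not of the lineage. SPCH, which starts the lineage, stood at 7.24, 8.39 and 7.65 at 0 h and at 2.96, 3.47 and 3.64 at 72 h, a change of -4.40 ± 0.26 (adjusted p = 3e-08) that ended below the lower quartile. STOMAGEN, a peptide gene of mesophyll that promotes stomata, fell by 2.04 ± 0.29, from 5.60, 6.68 and 6.32 to 3.57, 4.38 and 4.51. MUTE, which ends the divisions of the lineage, fell by 2.34 ± 0.34 to a dim level. FMA, which acts last in guard cells, had the smallest change, -1.11 ± 0.08, with arrays at 7.45, 8.35 and 8.17 before and at 6.30, 7.29 and 7.06 after culture. Its lowest 0 h array lay above its highest 72 h array by a small margin. The only measured epidermis gene, the trichome patterning gene TRY, fell by 1.48. Sugar transporters of the SWEET family had 5 of 15 genes 2-fold lower and 1 higher, where 10.3% and 12.7% of all probe sets were. After SWEET11, the largest falls were those of SWEET2 (-3.25 ± 0.19), SWEET1 (-3.01 ± 0.39) and SWEET10 (-2.63 ± 0.29).

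The response of bes1-1 was set beside those of WT and bes1-3, which were fitted in the same model. In WT 9.34% of all probe sets were 2-fold higher and 11.3% 2-fold lower, and in bes1-3 10.8% and 11.8%. Over annotated genes 1781 rose and 1657 fell in WT, and 1837 and 1752 in bes1-3. Of the genes that rose in bes1-1, 1228 also rose in WT, which is 72.6% of the bes1-1 genes and 69.0% of the WT genes. Of those that fell, 1272 also fell in WT (80.6% and 76.8%), and 4 genes, 1 that rose and 3 that fell in bes1-1, moved by at least 2-fold the other way in WT. With bes1-3 the shared genes were 1397 that rose (82.6% and 76.0%) and 1362 that fell (86.3% and 77.7%). Changes of at least 16-fold in the upward direction were reached by 91 genes in bes1-1, 219 in WT and 198 in bes1-3. Over all probe sets the shares were 0.492%, 1.01% and 0.916%. Across the 16411 genes Pearson's r of the bes1-1 changes was 0.871 with WT and 0.930 with bes1-3.

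**Figure D3:**
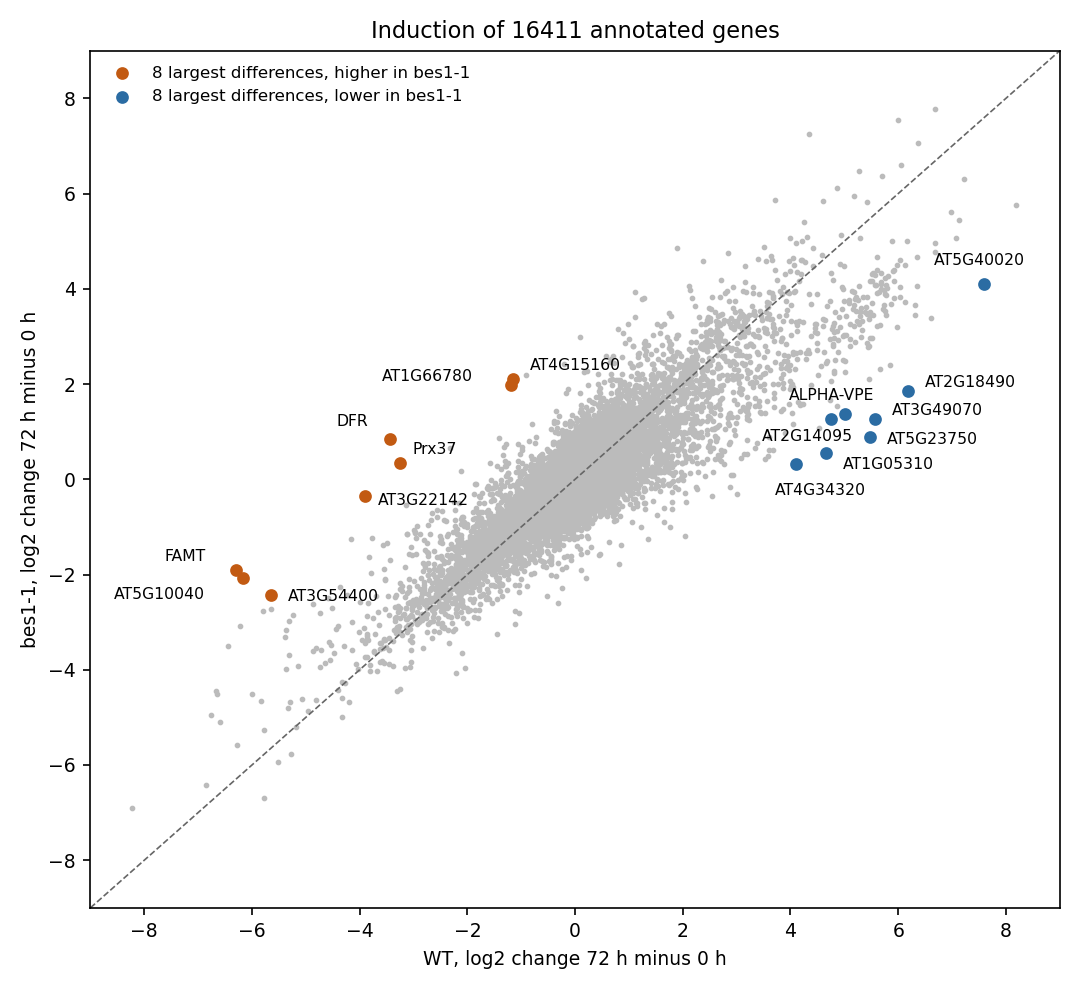
Log2 change from 0 h to 72 h of 16411 annotated genes in WT (x axis) and bes1-1 (y axis), with equal change on the dashed line. Orange and blue dots mark the 8 largest called differences in each direction. Most genes lie along the line, and among genes at 4 or more in WT many lie below it. As the WT arrays choose these genes, their spread alone puts some below the line, so this is a description only.

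The difference itself was tested as the induction of bes1-1 minus that of WT. It was higher in bes1-1 for 1558 probe sets (4.06%) and lower for 1641 (4.27%), and at an unadjusted p under 0.05 there were 9759. These calls rest on the replicate block, since without it 8 were higher and 12 lower. A block that only set replicate 1 apart from replicates 2 and 3, added after the data were seen, gave 1638 higher and 1641 lower. They also moved with single arrays. Without WT replicate 3 at 0 h 456 were higher and 1014 lower, and without WT replicate 2 at 0 h 2636 were higher. Without WT replicate 2 at 72 h 1090 were lower. Of the 1781 annotated genes that rose in WT, 460 had a called difference of at least 2-fold that was negative and 36 one that was positive, where 2.78% and 1.62% of all probe sets had such a difference. Of the 1657 that fell in WT, 16 had a negative and 86 a positive difference of that size. Of the 12973 genes that neither rose nor fell in WT these counts were 119 and 105. As the WT arrays enter both the class and the difference, this split is a description only.

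Several secondary wall and cell death genes rose less in bes1-1 than in WT. TBL33 changed by 3.36 in bes1-1, 5.45 in WT and 4.70 in bes1-3, and the difference from WT was -2.09 ± 0.41 (adjusted p = 0.01). GUT2 had changes of 2.33, 3.83 and 3.51 in this order of genotypes, with a difference of -1.49 ± 0.26 (adjusted p = 0.0056). For IRX15 they were 2.24, 5.0 and 3.73, with a difference of -2.76 ± 0.46. The difference of IRX15-L, -1.78 ± 0.42, lost its call without any of 6 arrays. In all, 5 of 8 secondary wall genes were called lower in this difference, where 4.27% of all probe sets were. Without the block 0 of the 8 were called lower. AT5G66390 had a difference of -2.87 ± 0.39 (adjusted p = 0.0015), BGLU45 one of -2.57 ± 0.50 and scpl48 one of -1.36 ± 0.19. ALPHA-VPE, by contrast with BETA-VPE and GAMMA-VPE, had a large difference. It changed by 1.27 in bes1-1, 4.75 in WT and 2.18 in bes1-3, with a difference from WT of -3.47 ± 0.36 (adjusted p = 0.000363), while the other VPE genes were at 0.52 and -0.10 and were not called. The differences between these VPE genes were not tested.

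The differences kept in every alternative fit, the one without the block included, were those of 6 of the 16 genes with the largest differences from WT. AT5G23750 stood at 4.74, 4.78 and 5.06 at 0 h and at 5.01, 6.48 and 5.75 at 72 h in bes1-1. Its WT mean went from 4.62 to 10.10 and its bes1-3 mean from 4.82 to 6.82, and the difference of bes1-1 from WT was -4.60 ± 0.42 (adjusted p = 0.000188). The bes1-1 arrays at 72 h all lay below the WT mean at that time. AT1G05310 (-4.10), AT4G34320 (-3.78) and AT5G40020 (-3.50) were lower in this difference, and AT3G22142 (3.54) and AT4G15160 (3.25) were higher. AT5G40020 rose from a dim level in bes1-1, so the size of its difference is uncertain. Before culture AT3G22142 had similar means in all genotypes, 12.12 in bes1-1, 11.80 in WT and 11.81 in bes1-3. After 72 h its means were 11.76 in bes1-1, 7.90 in WT and 10.80 in bes1-3.

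**Figure D4:**
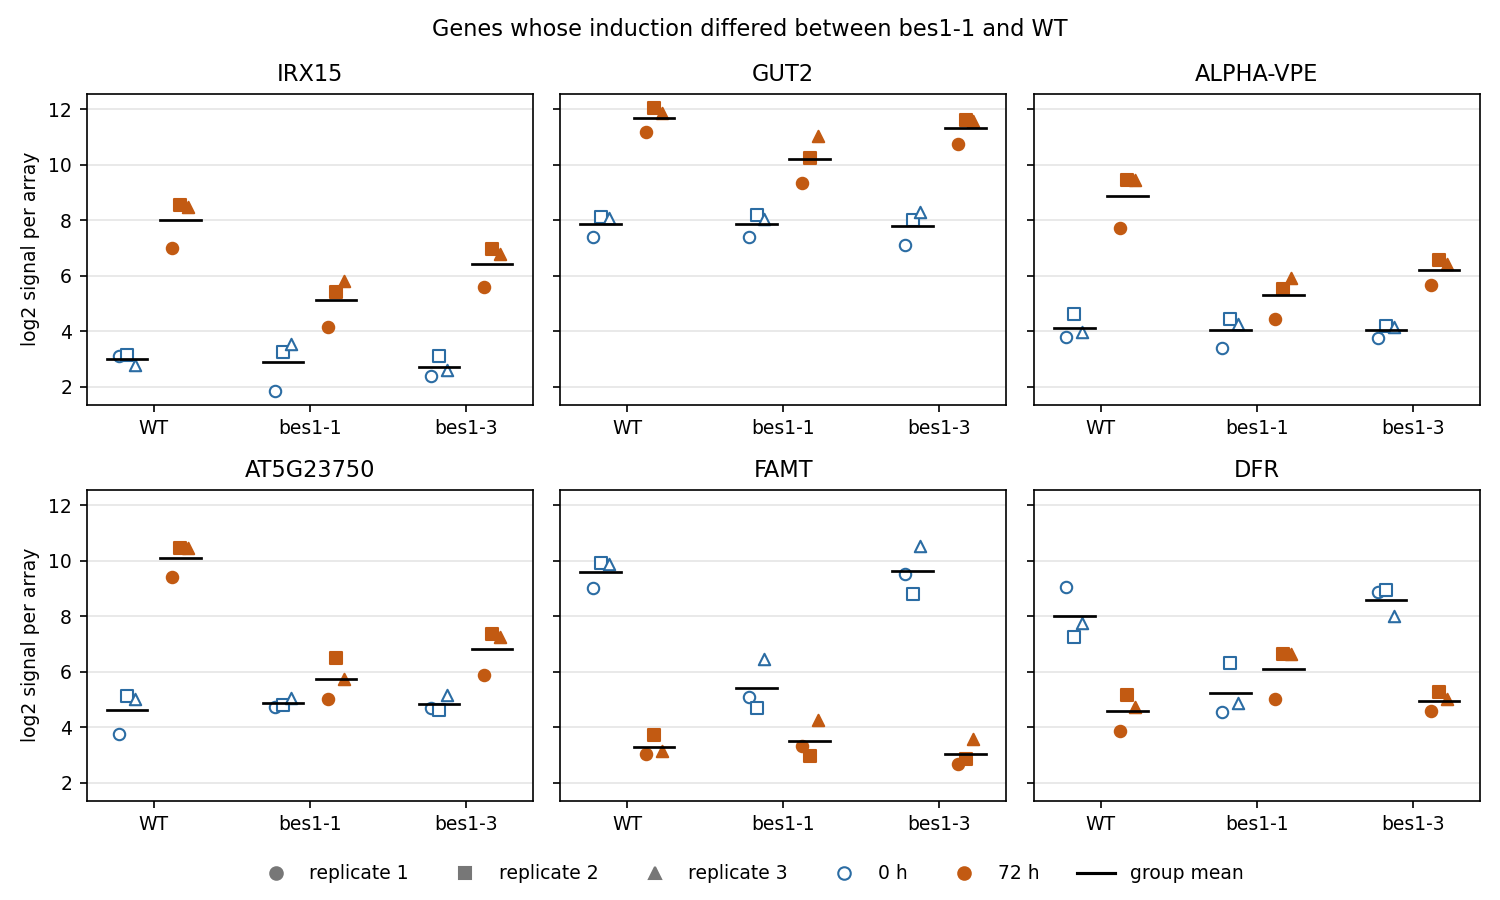
Log2 signal per array (y axis) of 6 genes in WT, bes1-1 and bes1-3 at 0 h and 72 h (x axis), with points for replicates and bars for group means. IRX15, GUT2, ALPHA-VPE and AT5G23750 end lower in bes1-1 than in WT, and FAMT and DFR start lower in bes1-1 than in the other genotypes.

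The largest positive differences included genes whose bes1-1 signal was already low at 0 h. FAMT, a farnesoic acid methyltransferase gene, had 0 h means of 5.41 in bes1-1, 9.60 in WT and 9.61 in bes1-3 and 72 h means of 3.52, 3.3 and 3.04. It fell by 1.90 to a dim level in bes1-1, so the size of its difference from WT, 4.41 ± 0.52 (adjusted p = 0.000728), is uncertain. DFR, an enzyme gene of anthocyanin synthesis, had 0 h means of 5.24, 8.01 and 8.60 and 72 h means of 6.09, 4.58 and 4.95. Its own change in bes1-1 was 0.85 (adjusted p = 0.224), and its difference from WT was 4.28 ± 0.79. Of 10 autophagy genes 7 were called lower in the difference from WT, and 0 without the block. Over all probe sets 4.27% were called lower in that difference and 4.06% higher. In bes1-1 the median of the autophagy genes was 0.21, against 1.02 in WT and 0.66 in bes1-3. With each array centred the bes1-1 median became -0.07. ATG8G, which encodes a protein of the autophagosome membrane, rose by 1.55 ± 0.14 in bes1-1, from 6.45, 7.07 and 6.77 to 8.34, 8.36 and 8.26, and ATG8E fell by 1.53 ± 0.28. Of 19 DNA replication and repair genes 6 were called higher and 0 lower in the difference from WT, and 0 higher without the block.

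Against bes1-3 few differences were called. The induction of bes1-1 was higher for 77 probe sets (0.2%) and lower for 138 (0.359%), with 5690 at an unadjusted p under 0.05, and without the block 0 were called in either direction. Omission of single arrays moved these counts to between 5 and 190 and between 1 and 230. FAMT (4.67 ± 0.52) and AT1G73325 (3.2 ± 0.32) were the named genes whose call against bes1-3 was kept whichever array was left out. AT1G73325 had 0 h means of 4.15 in bes1-1, 6.00 in WT and 7.31 in bes1-3 and 72 h means of 4.05, 4.16 and 4.01.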

How the data were processed

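Each array has 1 signal for every probe set, which the authors deposited already processed and which was read as log2, a base inferred from its range, as no source used here states it. The submitters' processing notes name Affymetrix Expression Console. How it corrected background, normalized and summarised, and in which version, is not given in the sources used here, and so the arrays were left on the deposited scale, so the lower scale of replicate 1 enters the spread of every group unless it is modelled. The files give no coordinates or genome build, and none are printed.

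The platform table gave 1 gene for 16722 probe sets and several for 759, and 20927 are unnamed here. Of those with 1 gene 16574 matched a locus of the RefSeq gene table, which gave 16411 loci. Where a locus had several probe sets (143 loci) the one with the highest mean stood for it. Values of 7132 probe sets were identical to those of another, and 7 loci identical to an unnamed or differently named probe set were not named. Control probe sets were not marked and stayed in.

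A limma model (lmFit and eBayes, version 3.58.1 under R 4.3.3) was fitted to these values, with a mean for each of 6 groups and the replicate number as a block (10 residual degrees of freedom), and p-values were adjusted by the Benjamini-Hochberg method over 38408 probe sets. The pairing comes from the replicate numbers of the labels. Deviations of same-numbered 0 h and 72 h bes1-1 arrays from their group means correlated at 0.46, 0.186 and 0.168 for replicates 1, 2 and 3. Crossed between replicates 2 and 3 they correlated at 0.141 and 0.221, so this check sets replicate 1 apart but does not tell numbers 2 and 3 from each other. On simulated data with 100 changed probe sets per size, of 38408, the bes1-1 induction fit recovered 50% of log2 changes of 1 and 86% of those of 2 with the block, and 2% and 48% without it. The simulated data held replicate shifts common to all groups, as the block assumes, so this comparison cannot test the block. Only 200 probe sets were changed there, so these shares do not give the recovery in the deposited data. Plots came from matplotlib 3.10.9 (Python 3.11.15). The number of arrays limits the precision.

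Gene lists (18 planned from symbols and 51 added from the table's gene names) and all members were chosen with earlier results of these data known. Of the planned lists 40 more needed gene descriptions, which the table does not hold, and were not used. For the peroxidase family the loci were taken from general knowledge. Lists are described by counts and medians, without a test. Named genes are the 15 largest rises and falls that were called, did not overlap and had the same sign in all pairs, the 10 largest of each direction above the lower quartile, up to 4 called members per list by size (or up to 2 uncalled), the 8 and 5 largest differences per direction from WT and bes1-3, and the reference genes. Alternatives were the fit without the block, a block of replicate 1 against the others (added later), other scalings (array median, quantile, reference genes), filters on dim, identical or unnamed probe sets, a trended robust prior, replicates 2 and 3 alone, the 6 bes1-1 arrays alone, other fold limits and omission of each array.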

Additional observations from a re-analysis of the deposited data

Results flagged for a closer look

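The inductions of the following genes differed between bes1-1 and WT or bes1-3 by the test of the difference itself, and each value is the log2 change of bes1-1 minus that of the other genotype. Against WT, the difference was positive for FAMT (4.41), DFR (4.28), AT5G10040 (4.09), Prx37 (3.60), AT3G22142 (3.54), AT4G15160 (3.25), AT3G54400 (3.22) and AT1G66780 (3.16). It was negative for AT5G23750 (-4.60), AT2G18490 (-4.32), AT3G49070 (-4.30), AT1G05310 (-4.10), AT4G34320 (-3.78), AT2G14095 (-3.65), AT5G40020 (-3.50) and ALPHA-VPE (-3.47). Of these 16 genes, AT3G22142, AT4G15160, AT5G23750, AT1G05310, AT4G34320 and AT5G40020 were called in every alternative run, with a highest adjusted p of 0.0352. FAMT and Prx37 missed the threshold only with replicates 2 and 3 alone, at an adjusted p of 0.0523 each. The call of AT1G66780 was lost without any of 4 arrays of 12. The lower bes1-1 group means of FAMT, AT1G66780, AT2G18490, AT2G14095 and AT5G40020 were dim, so the sizes of these differences are uncertain.

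Among members of the gene lists, the difference from WT was called for TBL33 (-2.09), IRX15-L (-1.78), GUT2 (-1.49) and IRX15 (-2.76) of the secondary wall. It was also called for AT5G66390 (-2.87), BGLU45 (-2.57) and AT5G64120 (1.81) of lignin, the last of which fell less in bes1-1 than in WT. The carboxypeptidase gene scpl48 was at -1.36, and the autophagy genes ATG8E, APG8A and ATG8D were at -1.74, -2.09 and -0.72. The calls of IRX15-L, ATG8E and ATG8D were lost without any of 6, 6 and 8 arrays of 12.

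Against bes1-3, FAMT (4.67), DFR (4.50), AT1G73325 (3.2), JRG21 (2.67) and AT2G43590 (2.66) were higher in this difference, and AT5G14110 (-2.86), AT2G35585 (-2.38), AT4G16000 (-2.14), AT2G04420 (-2.11) and AT3G51540 (-2.11) were lower. Other than FAMT and AT1G73325, these genes lost their call when any of 6 to 11 of the 12 arrays was left out. The lower bes1-1 group means of FAMT and JRG21 were dim.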

How the results depend on the processing

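Without the replicate block 4191 probe sets were higher and 3748 lower over the bes1-1 induction, 8 higher and 12 lower in the difference from WT, and 0 in each direction in the difference from bes1-3 (limma, adjusted p below 0.05). With each array centred the induction had 6726 higher and 13587 lower and 3235 at least 2-fold higher, the difference from WT had 552 higher and that from bes1-3 had 212 lower. Over the 16722 probe sets with 1 named gene the induction had 4235 and 4155, or 1716 and 1606 at 2-fold, and the difference from WT 865 and 1067. A log2 limit of 0.5 gave 8986 higher and 7146 lower, and a limit of 1.5 gave 2531 and 2337. Quantile normalization left 38 higher and 79 lower against bes1-3. Scaling to reference genes left 915 higher against WT, and 40 higher and 19 lower against bes1-3. A trended robust prior gave 2395 higher against WT, and 137 and 270 against bes1-3, where leaving out dim probe sets gave 135 and 275 and leaving out identical ones 244 lower. Replicates 2 and 3 alone gave 129 and 312 against WT and 11 and 1 against bes1-3. The cause of these shifts was not tested, and some of these fits hold fewer arrays or probe sets.

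Omission of single arrays left 8828 to 10877 higher and 7200 to 7960 lower over the induction (4221 to 5357 and 3780 to 4050 at 2-fold). In the difference from WT it left 456 to 2636 higher and 1014 to 1748 lower, and in that from bes1-3 5 to 190 and 1 to 230. The reference gene AT4G34270, called at 0.23, was at -0.05 with each array centred. Of 4174 values of 246 gene inductions under alternatives, 3963 kept their direction and side of the threshold, 210 missed the threshold and 1 turned. Without the replicate block 50 of those 210 were lost, and with a block of replicate 1 against replicates 2 and 3, an alternative chosen after seeing the data, 1 was. That block gave 10963 higher and 8413 lower over the induction and 77 and 182 in the difference from bes1-3. Dim genes have uncertain sizes. The promoter motif comparison was not run, since no promoter sequences were given.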

Other observations

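Broader gene families, not chosen for the vascular or photosynthetic programmes, also held called genes over the bes1-1 induction. They can share members with the lists above. Over all probe sets 12.7% were 2-fold higher and 10.3% 2-fold lower. In the class III peroxidase family, 14 of 64 genes rose and 7 fell, with a median of -0.20. AT2G38380 rose by 7.26 ± 0.62 from a dim level, with arrays at 3.22, 1.88 and 3.15 before and at 10.53, 9.76 and 9.72 after culture, and AT4G36430 rose by 4.75 ± 0.29, from 5.72, 4.93 and 4.85 to 10.26, 9.21 and 10.26. Beta-glucosidases had 8 of 23 genes higher and 3 lower. BGLU15, BGLU47 and BGLU33 rose by 3.4, 3.32 and 3.08. The cytochrome P450 subfamily CYP71B had 0 of 20 genes higher and 9 lower, or 12 lower with each array centred, with a median of -0.78. CYP71B29 fell by 3.12 ± 0.25, from 7.61, 7.16 and 8.03 to 4.34, 4.12 and 4.96. UDP-glycosyltransferases, which attach sugars to small molecules, had 3 of 51 genes higher and 7 lower, or 12 lower with each array centred, which is below the share over all probe sets for rises and near it for falls, and UGT85A2 fell by 3.2 ± 0.25. Of 15 glutathione transferase genes 2 rose and 5 fell. GSTF4 rose by 3.78 ± 0.23, from 5.58, 6.67 and 6.56 to 8.94, 10.74 and 10.47, and GSTU26 fell by 2.80 ± 0.16, from 7.32, 8.78 and 9.0 to 4.21, 6.38 and 6.10.

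Single genes of sugar handling and light response changed as well. Of 8 sugar and glucosinolate carriers 1 rose and 2 fell, and of 6 starch genes 1 rose and 2 fell. Over all probe sets 12.7% were 2-fold higher and 10.3% 2-fold lower. TMT2, a sugar transporter of the vacuolar membrane, rose by 1.63. SFP1 and SFP2, which encode sugar transporters, fell by 3.05 ± 0.21 and 3.97 ± 0.24, and SFP2 went from 8.98, 8.63 and 9.38 to 4.76, 5.53 and 4.78. AMY1, an alpha-amylase gene, rose by 3.28 ± 0.32, from 5.30, 5.31 and 5.34 to 7.65, 8.44 and 9.68, so its 0 h arrays were almost level and its 72 h arrays were spread. PIF7, a transcription factor of shade and phytochrome responses, fell by 3.45 ± 0.21, and FHL and HYH, which act in light signalling, fell by 2.26 and 1.62. These were the 3 of 7 genes of the light and clock list that were called. Of 11 iron and zinc genes 0 rose and 3 fell, PYE by 1.41, ZIP6 by 1.22 and bHLH115 by 1.18. Defensins and thionins had 2 of 10 genes higher and 4 lower. PDF1.2 changed by -3.50 ± 0.92, with 0 h arrays at 7.53, 5.16 and 3.18 that were farther apart from each other than the 72 h arrays at 1.95, 2.13 and 1.28. These 72 h signals were dim, so the size of this change is uncertain.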
